A study of Homo sapiens with 4 samples.

Results

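Desmosomes are the spot-like junctions that tie the keratin filaments of neighbouring epithelial cells together. Their transmembrane parts are cadherins of 2 kinds, the desmocollins and the desmogleins, which bind across the gap between cells. Inside the cell the armadillo proteins plakoglobin and plakophilin connect the cadherin tails to desmoplakin, and desmoplakin holds the keratins. In stratified epithelia the cadherins differ by layer: desmocollin 3 and desmoglein 3 are known from the basal layers, desmocollin 1 and desmoglein 1 from the upper layers, desmoglein 4 from the hair follicle, and desmocollin 2 and desmoglein 2 from most epithelia.

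The 10 genes described here were chosen by name out of 19974 protein-coding genes: the desmocollin genes DSC1, DSC2 and DSC3, the desmoglein genes DSG1, DSG2, DSG3 and DSG4, the desmoplakin gene DSP, the plakophilin gene PKP1 and the plakoglobin gene JUP. All were found in the RefSeq annotation of GRCh38, the build of the peaks. Peaks were read over each gene record and the 10 kb on both sides of it. The 4 libraries come from MCF10A, an immortalised and non-tumour-forming human mammary epithelial line, all cultured in MEGM, a medium for mammary epithelial cells, to which 100 ng/ml of cholera toxin was added. Chromatin was immunoprecipitated for H3K4me3, which marks promoters that are active or poised, for H3K79me2, laid down by DOT1L over the early part of transcribed genes, and for H3K27me3, the mark of Polycomb repression. Each mark had 1 library, the input DNA library was not used here, and the labels name no treatment contrast, so the values have no replicate error and no test, and read depth is unknown.

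A peak's fold is the authors' enrichment over the caller's background. A mark was called at a gene when peaks covered at least 25% of a window at either end of its record: 1000 bp to both sides of the end for H3K4me3 and H3K27me3, and 5000 bp inward for H3K79me2. Epithelial genes were read beside the labelled cell type. The E-cadherin gene CDH1 had H3K4me3 of 12.4-fold and the basal keratin genes KRT5 and KRT14 had 11.7- and 7.05-fold, each with H3K79me2. These H3K4me3 folds stood at percentiles 23.4, 20.4 and 10.1 of called genes. H3K4me3 was called at 67.9% of all protein-coding genes and H3K79me2 at 50.9%, so such calls do not identify the cell type. At CDH1 the H3K79me2 at the end was 2.32-fold with q above 0.05.

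The desmosome genes fell into a marked and an unmarked set. DSC2, DSC3, DSG2, DSG3, DSP and JUP had both H3K4me3 and H3K79me2 at an end, and DSC1, DSG1, DSG4 and PKP1 had neither. H3K27me3 was called at 0 of the 10. For H3K4me3 the 6 of 10 stand beside 67.9% of all protein-coding genes, for H3K79me2 beside 50.9%, and for H3K27me3 the 0 of 10 stand beside 9.1%, so the number marked was near that of genes in general. Among the 7640 genes of 20 to 100 kb, a length class that holds all 10, the shares were 75.8%, 61.5% and 6.83%. H3K4me3 with H3K79me2 and no H3K27me3 was found at 48.9% of all genes, and no mark at 25.9%. The same 6 genes kept H3K4me3 when peaks needed a −log10 q of at least 5 (called at 63.7% of all genes) or a fold of at least 5 (62.8%). They kept H3K79me2 with peaks of q of 0.05 or below (43.3% of all genes), and 3 of them, DSC3, DSG2 and DSP, kept it at a −log10 q of at least 5 (12.6%). Counting any peak in the record or the 10 kb around it, 8 of the 10 had H3K4me3, against 87.0% of all genes, and 8 had H3K79me2, against 79.3%.

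The 7 desmosomal cadherin genes lie in a row on chromosome 18, over 559.6 kb from 30989365 to 31549008. In the order of the coordinates they run DSC3, DSC2, DSC1, DSG1, DSG4, DSG3 and DSG2. The promoter table places the 3 desmocollins on the minus strand and DSG1, DSG3 and DSG2 on the plus strand, so the listed genes of the 2 families are transcribed away from the middle. The marked genes were the outer ones: DSC3 and DSC2 on the left, DSG3 and DSG2 on the right. DSC1, DSG1 and DSG4 fill the middle, a span of 285.7 kb, with no call at an end of these 3 genes.

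**Figure D1:**
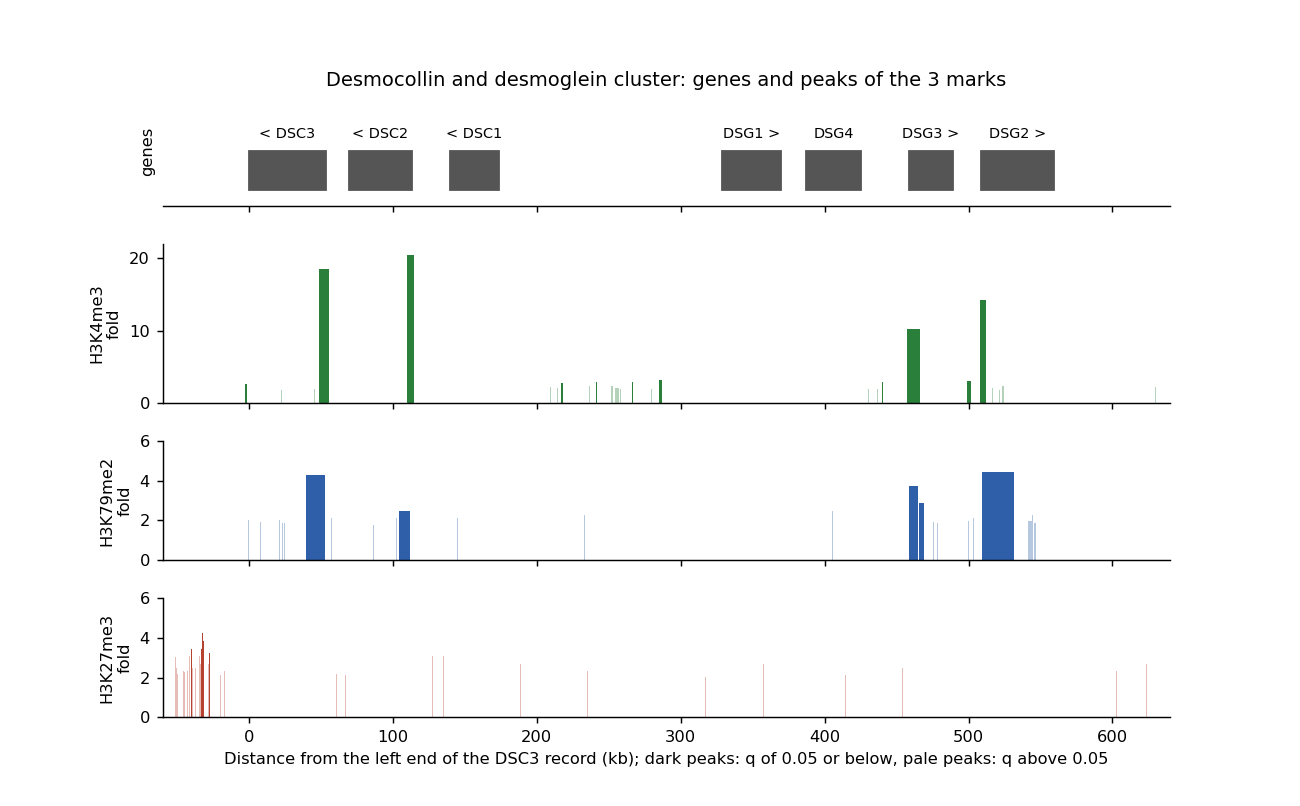
Genes (boxes, with the direction of transcription where the promoter table gives it) and peaks along the desmocollin and desmoglein cluster, with distance in kb from the left end of the DSC3 record on the x axis and the fold of each peak on the y axes. H3K4me3 of 10.3- to 20.5-fold stood at DSC3, DSC2, DSG3 and DSG2 with H3K79me2 beside it, and between them, from DSC1 to DSG4, peaks of the 3 marks reached 3.21-fold (H3K4me3), 2.50-fold (H3K79me2) and 2.69-fold (H3K27me3).

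DSC3, the desmocollin of basal layers (chromosome 18, 30989365 to 31042742), had an H3K4me3 peak of 6499 bp and 18.5-fold over its start. It reached from 1967 bp upstream to 4531 bp into the gene. An H3K79me2 peak of 13534 bp and 4.27-fold began 315 bp inside the start. DSC3 thus had the strongest H3K79me2 among the desmocollins and covered 29.3% of its record with it, against a median of 23.1% over all genes of 20 to 100 kb.

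DSC2, the widely used desmocollin (31058840 to 31102421), had the highest H3K4me3 fold of the 10 genes, 20.5 over 4796 bp. That fold stood at the 85.9th percentile of all genes called for the mark. Its H3K79me2 was the lowest of the marked genes, 2.46-fold over 7823 bp, at the 11.4th percentile of called genes, with a −log10 q of 1.34, just past the 1.301 that q of 0.05 gives. RefSeq lists 2 starts for DSC2, and the H3K79me2 peak began 1263 bp inside the outer and 102 bp inside the inner start. Among all genes with both marks, the outer distance of 1263 bp was at the 94th percentile, while the median was 99 bp.

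DSG3, the basal desmoglein and the target of autoantibodies in pemphigus vulgaris (31447741 to 31478702), had the widest H3K4me3 peak of the cluster. The peak spanned 9271 bp, which stood at the 97th percentile of widths among called genes, but its 10.3-fold stood at percentile 16.1 of folds. It lay mostly inside the gene, from 1015 bp upstream to 8255 bp downstream of the start. H3K79me2 came in 2 peaks at q of 0.05 or below, of 6111 bp and 3.73-fold and of 3653 bp and 2.89-fold. The first lay 140 to 6250 bp and the second 7189 to 10841 bp from the start, so the inner edge of the H3K4me3 peak fell within the second.

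DSG2, the desmoglein of most epithelia (31498177 to 31549008), had H3K4me3 of 14.3-fold over 4011 bp and the longest H3K79me2 peak of the 10 genes, 22499 bp at 4.41-fold. H3K79me2 covered 52% of its record. A further H3K4me3 peak of 3153 bp and 3.09-fold lay in the gap between DSG3 and DSG2, and its near edge was 7044 bp upstream of the start of DSG2.

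The remaining cadherin genes of the cluster had almost nothing. DSG1, the desmoglein of upper layers and the target in pemphigus foliaceus (31318160 to 31359246), overlapped 0 peaks of H3K4me3 and 0 of H3K79me2, in its record and in the 10 kb around it. DSC1, its desmocollin counterpart (31129236 to 31162856), overlapped 0 H3K4me3 peaks and 1 H3K79me2 peak of 661 bp and 2.12-fold, near its far end, with a −log10 q of 0.642. DSG4, known for inherited hair loss (31376777 to 31414909), had 1 H3K79me2 peak of 223 bp inside and 1 H3K4me3 peak of 1.89-fold beyond its right end, both with q above 0.05. The nearest H3K4me3 peak with q of 0.05 or below was 25212 bp from DSC1, 41839 bp from DSG1 and 14580 bp from DSG4. Of the 7640 genes of 20 to 100 kb, 552 (7.23%) had no bp of either mark in the record, as DSG1 did.

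The gap of 155.3 kb between the starts of DSC1 and DSG1 was not empty of H3K4me3. It held 11 peaks, of which 4 had q of 0.05 or below, with folds of 2.71 to 3.21 and widths of 386 to 1830 bp. H3K79me2 had 1 peak there, of 2.27-fold and q above 0.05. The gap also holds the record of the lncRNA LOC105372049 (31228112 to 31262297), which overlapped 5 of the H3K4me3 peaks and had no call. Over the whole cluster H3K4me3 covered 7.74% and H3K79me2 11.7%, against 2.43% and 8.47% of chromosome 18 from its first to its last peak. Beside other gene records the cluster was ordinary. The median share of a record covered was 7.33% and 20.2% over its 7 genes, against 6.59% and 23.1% over genes of 20 to 100 kb.

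H3K27me3 peaks were few in the cluster. It held 11 narrow peaks, 0 of them with q of 0.05 or below, which covered 0.344% of the bases, against 3% of chromosome 18. DSG1 and DSG4 each held 1 such peak inside the record, of 202 bp at 2.69-fold and of 195 bp at 2.14-fold, and DSC1 held 0. A stretch of 1.23 Mb without an H3K27me3 peak of q of 0.05 or below, from 30962622 to 32190016, contained all 7 genes, and 8 of the 2160 such stretches on the chromosome were longer. Over all 10 genes with 10 kb around them there were 8 different H3K27me3 peaks of 165 to 202 bp, and the 1 with q of 0.05 or below lay 5665 bp upstream of DSP. A peak in the record or the 10 kb around it was found at 8 of the 10 genes for H3K27me3, against 74.2% of all genes, and with q of 0.05 or below at 1 of the 10, against 31.9%.

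The plaque genes lie on other chromosomes and split in the same way. DSP, the gene of desmoplakin (chromosome 6, 7541671 to 7586714), had the strongest H3K79me2 and the widest H3K4me3 of the 10 genes. The H3K4me3 peak of 14102 bp stood at the 99.6th percentile of widths and its 12.6-fold at the 24.5th percentile of folds. It ran 677 bp upstream and 13424 bp into the gene. H3K79me2 of 5.69-fold over 16364 bp stood at the 98.4th percentile of folds, and all H3K79me2 peaks together covered 74.7% of the record. Of the 10 genes, DSP alone kept H3K79me2 with peaks of at least 5-fold, as 3.56% of all genes did. Beyond its far end, H3K4me3 of 14.4-fold and H3K79me2 of 4.03-fold overlapped the start of the neighbouring gene SNRNP48, which was named after its values were seen.

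JUP, the gene of plakoglobin, which also serves in adherens junctions (chromosome 17, 41754609 to 41786711), had H3K4me3 of 18.5-fold over 4205 bp. H3K79me2 of 3.60-fold over 16128 bp began 197 bp inside the outer of its 2 listed starts. H3K79me2 covered 66.6% of the record. A separate H3K4me3 peak of 1983 bp and 6.35-fold lay 5553 bp upstream of the start.

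PKP1, the plakophilin of the upper epidermal layers (chromosome 1, 201283506 to 201332989), differed from the other unmarked genes. Its start had no H3K4me3 peak, and neither the record nor the 10 kb around it had any H3K79me2 or H3K27me3 peak. Inside the record, however, lay 6 H3K4me3 peaks, 5 of them with q of 0.05 or below, which together covered 25.1%. These 5 were weak and spread from 5045 to 28746 bp past the start, with the highest fold, 3.70, 12000 to 13877 bp inside. Another H3K4me3 peak with q of 0.05 or below, of 1224 bp and 2.66-fold, lay 7371 bp upstream of the start. Of the 1847 genes of 20 to 100 kb without H3K4me3 at an end, 18 (0.975%) had at least as large a share of the record covered, and 2, PKP1 included, had that with no bp of H3K79me2. Both cuts were set at the values of PKP1 itself, so these counts only describe it. The nearest H3K79me2 peak with q of 0.05 or below was 56012 bp away.

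**Figure D2:**
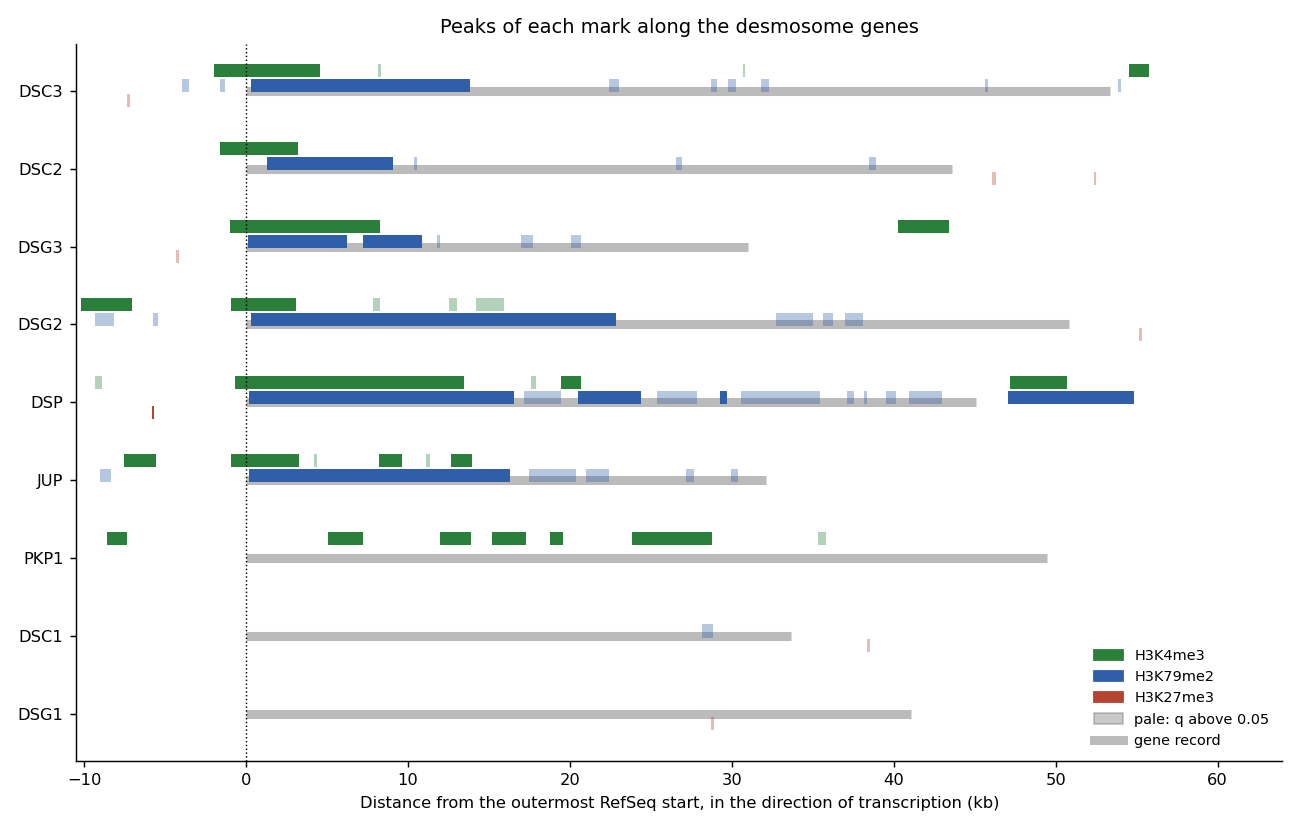
Peaks of H3K4me3, H3K79me2 and H3K27me3 along the 9 genes with a listed start, drawn from that start in the direction of transcription in kb, with the gene record in grey. In the upper 6 genes H3K4me3 crosses the start and H3K79me2 begins 140 to 1263 bp inside it, in PKP1 weak H3K4me3 lies inside the record and upstream but not at the start, and DSC1 and DSG1 have neither mark at the start.

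In the 6 marked genes H3K4me3 crossed the outer start and H3K79me2 began inside it. H3K4me3 reached 677 to 1967 bp upstream of the outer start, and H3K79me2 began 140 to 317 bp inside it in 5 of the 6, with DSC2 as the exception. Across the 8101 genes that had both marks and a listed start, H3K4me3 reached a median of 1175 bp upstream and 2524 bp inward. H3K79me2 began at a median of 99 bp inside the start there, with quartiles of -898 bp (upstream) and 394 bp. The onsets of 140 to 317 bp stood at percentiles 55.0 to 70.0 and were thus ordinary. The inward reach of H3K4me3 ranged from 3062 bp in DSG2 to 13424 bp in DSP, and DSG3 and DSP, at percentiles 98.4 and 99.8, were above the other four, at percentiles 64.2 to 86.0. The H3K79me2 peak with most bases in the first 5000 bp ended between 6250 bp (DSG3) and 22815 bp (DSG2) from the start, against a median of 7627 bp in all such genes. In DSG3 it ended 2005 bp before the inner edge of H3K4me3, at percentile 1.41 of this difference. In the other 5 genes it ended 3108 to 19753 bp past that edge. DSG3 and DSP had further H3K79me2 peaks with q of 0.05 or below deeper in the record, up to 10841 bp and 29685 bp from the start.

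Expressed per length of the record, the active marks set the genes in different orders. H3K4me3 covered 33.4% of DSP, 26.7% of DSG3, 25.1% of PKP1 and 20.1% of JUP, then 11.1% of DSG2, 9.14% of DSC3 and 7.33% of DSC2. H3K79me2 covered 74.7% of DSP, 66.6% of JUP, 52% of DSG2, 36.3% of DSG3, 29.3% of DSC3, 20.2% of DSC2, 1.97% of DSC1 and 0.585% of DSG4, with 0% in PKP1 and DSG1. Counting all peaks, the desmogleins DSG2 and DSG3 thus had larger covered shares of both marks than the desmocollins DSC2 and DSC3. With peaks of q of 0.05 or below, this did not hold for H3K4me3 in DSG2. Of the 4 H3K4me3 peaks in its record, 1 had such a q. That peak reached 3062 bp into DSG2 (50832 bp), against 3192 bp in DSC2 (43582 bp) and 4531 bp in DSC3 (53378 bp). The order of DSP and JUP in H3K79me2 also rests on peaks with q above 0.05. With q of 0.05 or below, peaks of 16364, 3895 and 401 bp lay in DSP (45044 bp). JUP (32103 bp) held a peak of 16128 bp, so its share was then larger than that of DSP. With 1 library per mark these orders have no spread, so no test can tell neighbours in them apart.

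**Figure D3:**
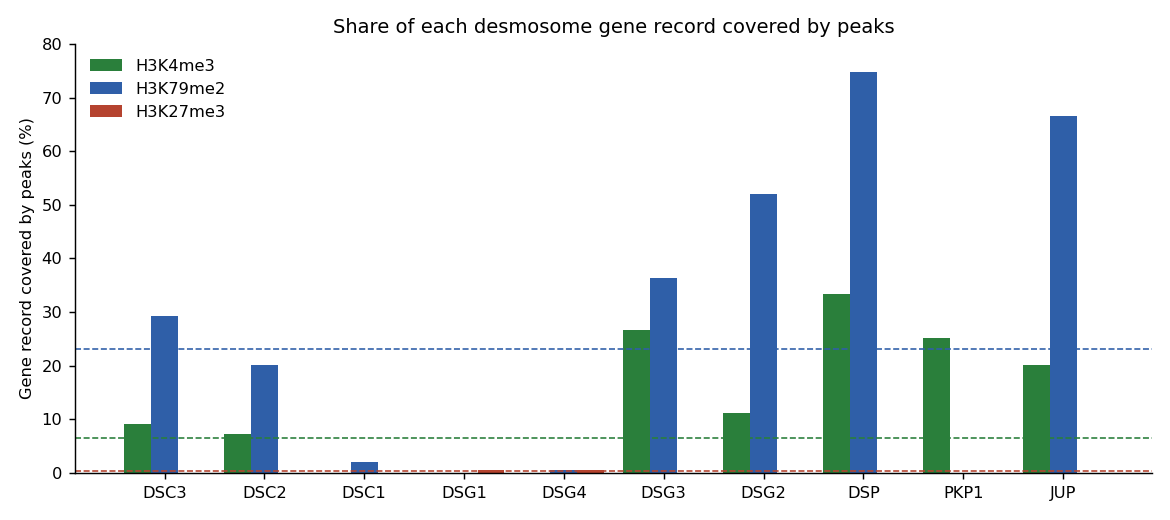
Percent of each gene record covered by peaks of the 3 marks, with the median over the 7640 protein-coding genes of 20 to 100 kb as a dashed line in the colour of the mark. Counting all peaks, also those with q above 0.05, DSP and JUP have the largest shares of H3K79me2 (74.7% and 66.6%). PKP1 has H3K4me3 over 25.1% with no H3K79me2.

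The promoter letters of the cluster and of PKP1 are shown because they differ in CpG content, which went with H3K4me3 across all promoters in these libraries. The RefSeq windows of GRCh38.p14 run from 250 bases before to 50 after a start. Those shown are chr18:31042693-31042992 (minus strand) for DSC3, chr18:31497927-31498226 (plus) for DSG2, chr18:31447491-31447790 (plus) for DSG3, chr18:31162807-31163106 (minus) for DSC1, chr18:31317910-31318209 (plus) for DSG1 and chr1:201283256-201283555 (plus) for PKP1. They are written 5′ to 3′ in the direction of transcription, and capitals mark CpG dinucleotides.
DSC3: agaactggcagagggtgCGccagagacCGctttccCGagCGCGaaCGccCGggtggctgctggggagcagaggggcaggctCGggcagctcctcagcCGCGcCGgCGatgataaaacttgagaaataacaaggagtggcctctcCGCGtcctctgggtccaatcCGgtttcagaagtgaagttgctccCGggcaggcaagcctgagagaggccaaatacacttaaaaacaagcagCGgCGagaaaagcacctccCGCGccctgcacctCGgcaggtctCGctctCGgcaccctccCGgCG
DSG2: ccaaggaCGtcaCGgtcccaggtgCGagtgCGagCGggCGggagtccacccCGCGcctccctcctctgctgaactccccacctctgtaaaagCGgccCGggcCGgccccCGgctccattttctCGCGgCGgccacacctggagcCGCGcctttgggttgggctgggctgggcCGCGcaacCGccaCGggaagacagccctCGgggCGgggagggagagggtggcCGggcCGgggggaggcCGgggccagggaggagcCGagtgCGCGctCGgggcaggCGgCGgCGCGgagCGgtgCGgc
DSG3: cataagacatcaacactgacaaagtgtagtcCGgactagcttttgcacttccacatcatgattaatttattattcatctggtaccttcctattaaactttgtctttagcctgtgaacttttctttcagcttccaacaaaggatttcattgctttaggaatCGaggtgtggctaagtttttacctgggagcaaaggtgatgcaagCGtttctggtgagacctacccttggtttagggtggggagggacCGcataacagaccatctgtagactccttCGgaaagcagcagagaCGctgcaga
DSC1: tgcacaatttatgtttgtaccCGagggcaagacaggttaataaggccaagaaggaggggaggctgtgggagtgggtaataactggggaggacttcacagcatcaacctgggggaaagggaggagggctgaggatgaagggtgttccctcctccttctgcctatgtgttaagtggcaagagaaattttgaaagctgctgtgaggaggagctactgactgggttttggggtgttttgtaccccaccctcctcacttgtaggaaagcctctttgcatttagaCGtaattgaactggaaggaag
DSG1: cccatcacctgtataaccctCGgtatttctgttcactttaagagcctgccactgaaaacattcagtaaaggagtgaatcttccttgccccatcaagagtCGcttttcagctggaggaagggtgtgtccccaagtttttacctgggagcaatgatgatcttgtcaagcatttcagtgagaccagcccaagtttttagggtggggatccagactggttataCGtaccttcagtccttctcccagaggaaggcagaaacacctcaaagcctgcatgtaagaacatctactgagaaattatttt
PKP1: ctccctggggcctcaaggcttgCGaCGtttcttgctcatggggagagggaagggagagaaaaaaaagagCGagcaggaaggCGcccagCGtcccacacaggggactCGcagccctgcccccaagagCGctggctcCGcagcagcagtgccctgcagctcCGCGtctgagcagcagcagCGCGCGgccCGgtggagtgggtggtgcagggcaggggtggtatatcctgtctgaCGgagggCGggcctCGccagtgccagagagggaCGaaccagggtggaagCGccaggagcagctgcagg

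DSG2 had 36 CpG and DSC3 had 25, and in both the whole window lay under H3K4me3. DSC1 had 2 and DSG1 had 3, with no peak. DSP had 37, JUP 19 and 23 at its starts, and DSC2 22 and 15 at its starts, against a median of 21 over all windows. Of 22132 promoter windows of protein-coding genes, H3K4me3 covered at least 25% of the window in 89.5% of those with 15 or more CpG, in 43.7% of those with 5 to 14 and in 15.7% of those with 0 to 4.

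DSG3 had a peak with few CpG, and PKP1 had no peak with more CpG. DSG3 fell in the class of 5 to 14 CpG, where 43.7% of windows had H3K4me3, so having a peak was common there. These shares count listed starts, and 1 peak can cover several starts of a gene, as at DSC2 and JUP. DSG3 has 1 listed start. PKP1 fell in the class of 15 or more, where 89.5% had it. The cuts for the shares below were set at the values of these genes themselves. DSG3 had 6 CpG and a peak of 10.3-fold over its whole window, and of the 5287 windows with 6 CpG or fewer, 458 (8.66%) had a fold at least as high. PKP1 had 19 CpG and no H3K4me3 over its window, and of the 12179 windows with at least 19 CpG, 1052 (8.64%) had no peak.

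**Figure D4:**
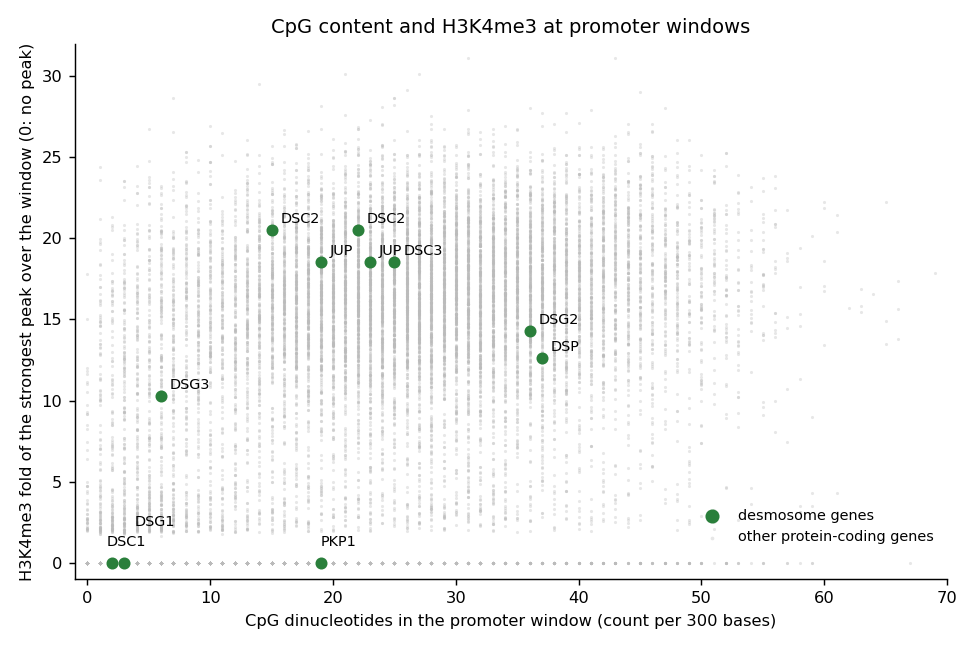
CpG dinucleotides in the promoter window of 300 bases (x axis) and the fold of the strongest H3K4me3 peak over it (y axis, 0 where there is none), with 1 point per listed start of a protein-coding gene, the desmosome genes in green. DSC1, DSG1 and PKP1 lie at 0, DSG3 has a peak with 6 CpG, and the other points of desmosome genes have 15 to 37 CpG and 12.6- to 20.5-fold.

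The windows of DSG1 and DSG3, an unmarked and a marked gene of the same family, shared a run of 20 identical letters, aagtttttacctgggagcaa. It lies 120 to 101 bases before the start of DSG1 and 78 to 59 bases before that of DSG3. Among the 53 pairs of windows from different desmosome genes the next longest shared run had 12 letters and the median was 9. Searched on both strands, TATAAA was in 0 of the 11 member windows (9.46% of all windows hold it) and TGACTCA, the AP-1 motif, in 0 (4.01%). GGGCGG, the GC box, was in 6 of the 11 (56.3%), CAGGTG, the E-box bound by Snail and ZEB factors, in 5 (20%), and CCAAT in 2 (34.6%). A match is a description of letters, not a site.

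A list of 15 further genes, chosen as partners in desmosomes and adherens junctions and including keratins, was marked almost throughout. H3K4me3 was called at 14 and H3K79me2 at the same 14, against 67.9% and 50.9% of all protein-coding genes, and H3K27me3 at 0, against 9.1%. The exception was KRT1, a keratin of the upper epidermis, which had neither active mark. H3K27me3 peaks of up to 3.46-fold together covered 23.3% of a window at an end of KRT1, short of a call. With peaks of q of 0.05 or below, H3K79me2 was called at 12 of the 15, without CDH1 and the periplakin gene PPL, against 43.3% of all genes. The other plakophilin genes differed from PKP1: PKP3 had H3K4me3 of 19.1-fold, PKP4 of 18.5-fold and PKP2 of 13.6-fold, with H3K79me2 of 3.99-, 3.69- and 3.08-fold. H3K79me2 was highest at the catenin genes CTNNB1, CTNNA1 and CTNND1, at 5.96-, 5.19- and 5.12-fold, and at PERP, a desmosomal membrane protein gene, at 4.25-fold. KRT10, the partner of KRT1 in upper layers, was called from H3K4me3 of 18.2-fold over 78.4% of the window at its far end, while the window at its start had 0%.

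Overlapping records limit the assignment of some peaks. The lncRNA LOC124904345 spans the start of DSC3, DSCAS begins inside the H3K4me3 peak of DSC2 on the opposite strand, and DSP-AS1 spans the start of DSP. DSCAS runs from there across DSC1 and had no call for H3K79me2. The part of these lncRNAs in the peaks was not tested.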

How the data were processed

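ChIP-seq peak lists of MCF10A cells were analysed, with 1 library each for H3K4me3, H3K79me2 and H3K27me3. Per the submitters' processing notes, Bowtie2 2.3.1, MACS2 2.1.1 and the build hg38 were used. A p threshold of 0.05 stands in the names the authors gave the deposited peaks. The fold of a peak is the authors' ratio over the caller's background, and −log10 p and −log10 q are the deposited values of the caller. The deposited score and summit columns were not used. Use of the input as control is not stated in the labels or file contents.

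The lists held 67781, 112731 and 393202 peaks on chromosomes 1 to 22 and X. Those of H3K4me3 and H3K79me2 are of broad peaks and that of H3K27me3 is of narrow peaks. Gene records and promoter windows came from RefSeq (GRCh38.p14). The design placed a gene's start from the promoter table if at least 80% of protein-coding genes had an entry. As 79.2% had one, both ends of the record were used and the listed starts became an alternative. Of the 10 genes, DSG4 has no entry. Bases covered by merged peaks were counted in Python 3.11.15 with numpy 2.4.6 and pandas 2.3.3, and the counting was tested on simulated peaks. Named genes were the 10 members, records within 100 kb of the cluster, and from the list of 15 partners the exceptions and the leading folds. Members and lists were chosen with earlier results of these data known. Alternatives were thresholds on q and fold, the covered share, window, flank, joining of peaks and the anchor. Peak lists give no read depth and hence no interval.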

Additional observations from a re-analysis of the deposited data

How the results depend on the processing

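With 1 library per mark, no setting has a replicate spread, and depth limits what a missing peak means. The count of 6 genes with H3K4me3 at an end was 6 under all 8 alternatives, and that of 0 genes with H3K27me3 was 0 under all 9. H3K79me2 at an end fell to 3 genes (DSC3, DSG2, DSP) at −log10 q of at least 5 and to 1 (DSP) with peaks of at least 5-fold, as did H3K79me2 anywhere in the record or 10 kb around it, from 8 genes. H3K27me3 in the record or 10 kb around it, found at 8 genes, was found at 1 with q of 0.05 or below, 0 at either stricter threshold, 2 with no flank and 0 with at least 500 bp covered. In the cluster, H3K4me3 covered 43325 bp, and 24577 bp at either stricter threshold. H3K79me2 covered 65629 bp, 36033 bp at −log10 q of at least 5 and 0 bp with peaks of at least 5-fold. H3K27me3 covered 1925 bp and 0 bp at all 3 thresholds. In all, 39 alternative values of these counts and sums, the fixed zeros included, stayed within 1.5 times and 16 moved further. For the bp covered at each gene, 42 alternative values stayed, fixed zeros included, and 48 moved further. The reason was not tested. No paired analysis was possible because each mark has 1 library.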

Other observations

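Beyond the desmosomal cadherin genes, the borders of the cluster differed in the repressive mark. On the left, H3K27me3 peaks with q of 0.05 or below ended 26744 bp before DSC3. On the right, the next such peak lay 641009 bp past DSG2. H3K79me2 with q of 0.05 or below had a gap of 4480 kb to the left of the peak of DSC3, and 1 of the 335 gaps on chromosome 18 was longer.

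To the right of DSG2, TTR, the gene of the liver and brain plasma protein transthyretin, had no call for any mark and 1 H3K27me3 peak of 2.31-fold. B4GALT6, a galactosyltransferase gene, had no call, while inside its record lay H3K4me3 of 16.4-fold and H3K79me2 of up to 3.38-fold. The antisense record DSG1-AS1 had an H3K4me3 call from a peak of 1.90-fold with a −log10 q of 0.128, and DSG2-AS1 had none.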
